A study of Homo sapiens with 6 samples.

Results

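Keratin, cell junction, integrin and extracellular matrix genes were examined in HT-29, a long-established line of human colorectal cancer cells, with and without depletion of OGT, the enzyme that attaches O-GlcNAc to nuclear and cytoplasmic proteins. The members were the protein coding genes whose names follow the usual symbols of these families, namely keratins, claudins, occludin, tight junction proteins, desmosomal proteins, cadherins and protocadherins, catenins, connexins, nectins and CEACAMs, integrins, laminins, collagens, fibulins, thrombospondins, tenascin C, fibronectin and CD44. The rule found 75 genes among the 5681 genes of the deposited table, with 11 keratins, 30 junction genes and 34 integrin and matrix genes. The GENCODE 29 annotation holds 327 protein coding genes with such names, of which the table therefore lists a part. KRT8, KRT14, KRT18, CDH1, EPCAM, CD44, FN1, JUP, TJP1 and ITGB4 are outside the table and were not analysed here. The names also take in 3 genes with another function, COL4A3BP (a ceramide transporter), CTNNBIP1 (an inhibitor of beta-catenin) and ITGBL1 (an integrin-like secreted protein).

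Keratins form the intermediate filaments of epithelial cells, and pairs of type I and type II keratins mark the kind of epithelium and its state. Desmosomes and hemidesmosomes anchor these filaments to neighbouring cells and to the basement membrane, tight junctions seal the space between cells, and gap junctions join their cytoplasm. Integrins are paired receptors of alpha and beta subunits that bind laminins, collagens and other matrix proteins. In the colon, KRT20 and KRT19 belong to the simple epithelium, while KRT5, KRT13, KRT16 and KRT17 are best known from stratified and injured epithelia.

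The 6 libraries were of HT-29 cells grown attached. Libraries 1, 2 and 3 carried a Scramble hairpin and are labelled wild type, and libraries 4, 5 and 6 carried a hairpin against OGT (shOGT) and are labelled OGT knock down. The treatment entry of all 6 names colorectal tumour growth and no agent. The labels give no batch and do not say whether the libraries came from separate cultures, so that the p-values here measure only the spread between these libraries. The study lists 2 OGT hairpins and does not name the one that was sequenced. OGT itself was 9628, 11638 and 11619 normalized counts in Scramble and 484, 621 and 537 in shOGT, so that 4.99% of the Scramble mean remained (log2 fold change -4.32 ± 0.11, limma adjusted p = 1.59e-12). With 3 libraries against 3, the exact two-sided permutation test cannot go below p = 0.1, the value it gave here. The reads on the listed genes numbered 4145921 to 4504303 in Scramble and 3302558 to 3471647 in shOGT. Of 16 markers of colon epithelium, 6 were in the table, and KRT19, KRT20, VIL1, LGALS4 and HNF4A each had means of at least 208 normalized counts in both groups, while the sixth, CDH17, was low in both, at 10.8 ± 2.62 and 28.7 ± 4.40 (SD, n = 3).

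Among the genes listed, most keratin, integrin and laminin genes were higher after OGT depletion, whereas the junction genes split. The table lists 11 of 55 keratin genes of the annotation, 30 of 174 junction genes and 34 of 98 integrin and matrix genes, among them 11 of 30 integrin and 5 of 12 laminin genes, and the counts hold for these only. Of the 75 members, 54 were higher and 21 were lower in shOGT, at a fold change over 2 and an adjusted p under 0.05 by limma on log2(normalized count + 1). KRT40, COL6A2, FBLN5 and CLDN5 were called with one group at 0. Against a floor of 3 reads per library, their folds are bounded only at 1.497, 1.60, 1.61 and 1.47, under the limit of 2. The keratins divided into 10 higher and 1 lower, the junction genes into 16 and 14, and the integrin and matrix genes into 28 and 6. Among all genes tested, 52.2% were called higher and 47.2% lower, and among the protein coding genes tested 42.3% were higher and 57.1% lower. The members were called higher in 72% of cases and lower in 28%. The split of the junction genes, 53.3% higher and 46.7% lower, was near that of all genes tested. It was above the 42.3% higher of protein coding genes. Since the table holds only genes past 2-fold, and the study describes its changed genes, equal in number to those of the table, as chosen by p-value as well, being called, a small p and the separation of the groups were largely set by that choice for every gene here. The direction and the size beyond 2-fold were not. The values of the groups did not overlap for any of the 75 members, against 99.5% of all genes tested. The median log2 fold change was 1.66 over the members, 2.14 over the keratins, 1.08 over the junction genes and 1.87 over the integrin and matrix genes, beside 1.05 over all genes and -1.11 over the protein coding genes. With genes at 0 in one group set to their bound, these medians were 1.42, 1.904, 1.08 and 1.67.

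The direction of the background depends on how the libraries are scaled, because only changed genes are listed. Median-of-ratios factors assume that most genes are unchanged, and here they could rest on changed genes only. The rescaling therefore shows how far calls depend on the scaling, and neither scaling can be checked against unchanged genes. Rescaling the libraries by median-of-ratios factors from the listed genes moved the median of all genes from 1.05 to 1.76, and the share called higher among called genes from 52.5% to 73.2% over all genes and from 42.6% to 65.4% over protein coding genes. The median log2 fold change became 2.38 over the members, 2.57 over the keratins, 1.79 over the junction genes and 2.55 over the integrin and matrix genes. The share among called members rose from 72% to 81.8%, with 54 higher and 12 lower. Among junction genes it rose from 53.3% to 69.6%, with 16 higher and 7 lower. Among integrin and matrix genes it rose from 82.4% to 87.5%, and among keratins it was 90.9% under both. No member changed direction under this or any other setting tried.

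**Figure D1:**
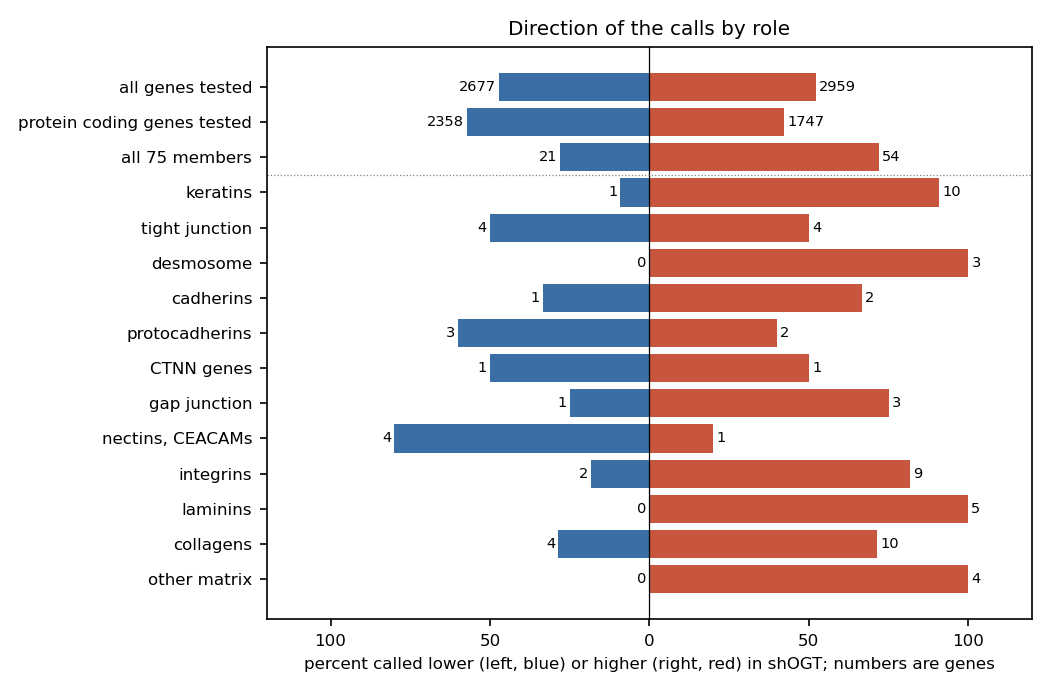
Percent of genes called lower (to the left) or higher (to the right) in shOGT, for all genes tested, protein coding genes tested, all 75 members and the 12 roles, with the number of genes at each bar. The 3 desmosome, 5 laminin and 4 other matrix genes were all higher, while 4 of 5 nectin and CEACAM genes were lower.

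Of the 3 groups of members, the keratins showed the widest range of log2 fold changes, from -1.68 to 6.90. KRT16, a type I keratin of activated and injured epidermis (ENSG00000186832, chromosome 17, 41609778 to 41615899 of GRCh38), was 2.66, 1.80 and 0 normalized counts in Scramble and 325, 275 and 191 in shOGT. No Scramble library held more than 3 reads, and the ratio of the group means was 177 with a 95% counting interval from 75.4 to 546. Its log2 fold change of 6.90 ± 0.45 (adjusted p = 4.36e-09) was the highest of the members. Errors of log2 fold changes are standard errors, and those of means are SDs over 3 libraries. Of the 75-base stretches of its transcript, 9.68% also occur in KRT14 or 3 KRT16 pseudogenes, so that some of its reads could stem from these copies. This is just under the 10% limit for uncertain genes, so KRT16 was not left out with those. KRT17, another keratin of injured epithelium, lies next to it (ENSG00000128422, chromosome 17, 41619441 to 41624842). KRT17 was 201, 180.2 and 160.1 in Scramble and 1782, 1697 and 1894 in shOGT, a 9.92-fold difference (log2 fold change 3.31 ± 0.11, adjusted p = 1.74e-11). Every shOGT library exceeded every Scramble library by a wide margin for both genes.

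KRT20 and KRT19, keratins of simple epithelium, also rose. Where 3 values are set against 3 others, the Scramble libraries come first. KRT20, a keratin of differentiated intestinal cells (ENSG00000171431, chromosome 17, 40875941 to 40885227), was 807, 935 and 889 in Scramble and 5623, 5533 and 5767 in shOGT, which is 6.43-fold (log2 fold change 2.69 ± 0.085). KRT19, the most abundant member keratin per exon length, was 5593, 4180.3 and 4446 against 13339, 11539 and 12286, with a log2 fold change of 1.39 ± 0.11. Summed over the 11 genes, keratin counts ran from 5857 to 7216 across the Scramble libraries and from 20555 to 22944 across the shOGT libraries, and KRT19 and KRT20 made up most of both. KRT13, of mucosal stratified epithelium, was 2.86-fold higher (from 471 ± 40.6 to 1346 ± 196, SD, n = 3), and KRT15, of basal cells, was 3.37-fold higher (from 72.5 ± 13.3 to 244 ± 11.98). An opposite-strand gene covers 16.3% of the exon bases of KRT13, and without strand in the counting their reads could be mixed.

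Other keratins rose from levels close to 0. Over the whole table, 7.27% to 7.90% of genes were at 0 in Scramble libraries and 1.21% to 1.74% in shOGT libraries. Rises from near 0 were therefore not particular to the members. KRT5, the type II keratin of basal cells, was 1.77, 0.901 and 0 in Scramble and 12.6, 5.36 and 23.9 in shOGT, a ratio of 15.7 with a counting interval from 4.84 to 77.2. KRT6C and KRT40 were at 0 in every Scramble library, and against a floor of 3 reads per library they were at least 3.74-fold and 1.497-fold higher. Of the 75-base stretches of the KRT6C transcript, 42.9% also occur in KRT6A, KRT6B or KRT5, so its reads are uncertain. KRT12, known from the cornea, was 3.55, 3.60 and 6.44 against 15.8, 10.7 and 44.4, with one shOGT library well above the other two, and its log2 fold change of 1.95 was 1.38 without that library. Of the 11, KRT23 was the only keratin that fell, from 12.4, 26.1 and 15.6 in Scramble to 4.21, 5.36 and 4.55 in shOGT (log2 fold change -1.68 ± 0.41, adjusted p = 0.00134), and it sits among higher keratin genes in the type I cluster on chromosome 17.

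**Figure D2:**
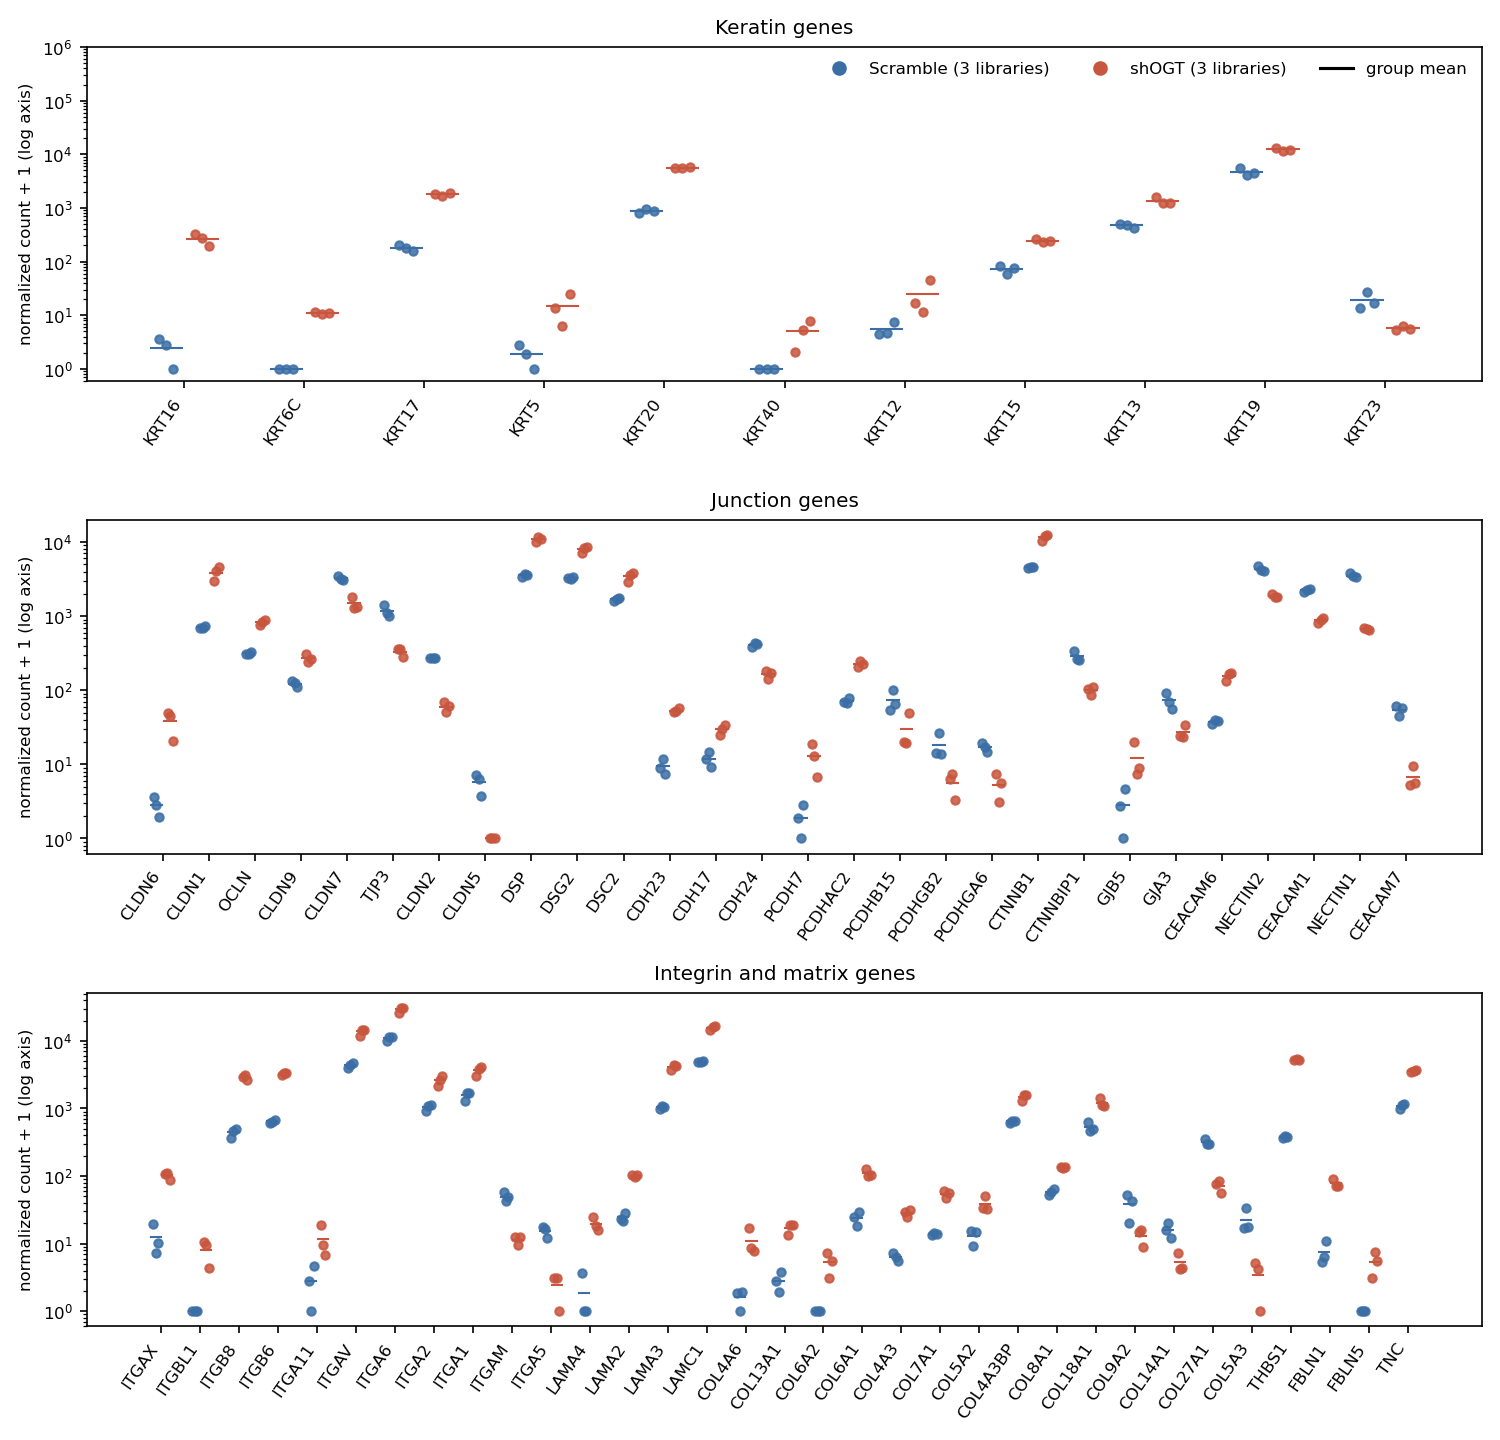
Normalized count + 1 (log axis) of 72 of the 75 members in the 3 Scramble and 3 shOGT libraries, in panels for keratins, junction genes and integrin and matrix genes, with points for libraries and lines for group means. For none of these 72 genes do the points of the groups overlap, which also held for 99.5% of all genes tested.

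The 8 tight junction genes split evenly, 4 higher and 4 lower. CLDN1, a sealing claudin (ENSG00000163347, chromosome 3, 190305701 to 190322475), was 690.0, 697 and 728 in Scramble and 2999, 4022 and 4571 in shOGT, a 5.48-fold rise (log2 fold change 2.43 ± 0.13, adjusted p = 4.80e-10). OCLN, which encodes occludin, was 309.5, 309 and 322 against 760.0, 820.4 and 884 (log2 fold change 1.38 ± 0.10). CLDN6, a claudin of embryonic epithelia, rose from 2.66, 1.80 and 0.920 to 48.4, 43.9 and 19.4, and its ratio of 20.7 has a counting interval from 9.27 to 58.1. CLDN9, the neighbour of CLDN6 on chromosome 16, was 2.22-fold higher.

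The other tight junction genes moved the opposite way. CLDN2, a claudin that forms cation pores (ENSG00000165376, chromosome X, 106900164 to 106930861), was 275, 268 and 272 in Scramble and 68.4, 49.3 and 60.3 in shOGT, so that 21.8% remained (log2 fold change -2.19 ± 0.18, adjusted p = 3.06e-08). RIPPLY1 covers 10% of its exon bases on the opposite strand. TJP3, the scaffold protein ZO-3 (ENSG00000105289, chromosome 19, 3708109 to 3750813), was 1431, 1089.5 and 992 against 361, 355 and 277, and 28.2% remained (log2 fold change -1.81 ± 0.14). CLDN7, the most abundant of the tight junction genes per exon length in Scramble, fell from 3501, 3197 and 3063 to 1817, 1304 and 1343 (log2 fold change -1.14 ± 0.12). After that rescaling CLDN7 had a log2 fold change of -0.43 and was no longer called. A same-strand gene shares 10.5% of the 75-base stretches of its transcript. CLDN5, best known from endothelium, was 6.21, 5.41 and 2.76 in Scramble and 0 in every shOGT library, at least 1.47-fold lower. Together the 8 genes summed to 5492 to 6346 normalized counts in Scramble and 6356 to 7421 in shOGT, so that the summed level differed far less than its parts.

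The first promoter shown is that of TJP3, because it is the only lower member whose window holds the E-box CACGTG, the sequence that c-Myc and related factors bind. It covers 250 bases before to 50 bases after a RefSeq start (GRCh38.p14, plus strand, chr19:3708134-3708433), with the E-box and a GC box in capitals.
TJP3: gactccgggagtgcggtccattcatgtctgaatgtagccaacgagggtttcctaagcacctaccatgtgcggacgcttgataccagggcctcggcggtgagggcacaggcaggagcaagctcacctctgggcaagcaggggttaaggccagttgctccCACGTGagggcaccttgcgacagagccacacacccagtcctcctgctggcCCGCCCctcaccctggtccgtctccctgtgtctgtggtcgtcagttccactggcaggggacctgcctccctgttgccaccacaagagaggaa

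All 3 desmosome genes in the table were higher. DSP, desmoplakin, which ties keratin filaments to the desmosome (ENSG00000096696, chromosome 6, 7541575 to 7586717), was 3419, 3699 and 3632 in Scramble and 9858, 11672 and 11125 in shOGT (log2 fold change 1.60 ± 0.087, adjusted p = 7.45e-10). DSG2, a desmosomal cadherin of simple epithelium, was 3236, 3209.8 and 3373 against 7054, 8231 and 8508 (log2 fold change 1.27 ± 0.089). DSC2, its partner, was 1581, 1721 and 1775 against 2928, 3585 and 3782 and rose 2.03-fold, just past the 2-fold limit. Without library 1, 5 or 6 the fold change of DSC2 dropped to 2 or below and it was not called. Summed, the 3 genes gave 8237 to 8780 normalized counts in Scramble and 19841 to 23488 in shOGT.

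Of 3 classical and atypical cadherins, 2 were higher and 1 lower. CDH17, the cadherin of liver and intestine, was low, at 10.6, 13.5 and 8.28 in Scramble and 24.2, 28.9 and 33.0 in shOGT (log2 fold change 1.34 ± 0.36). CDH23, known from hair cells of the ear, was 7.98, 10.8 and 6.44 against 49.5, 51.4 and 55.8, with 18.9% of its exon bases covered on the opposite strand by C10orf105. CDH24 fell from 379, 429.8 and 421 to 182, 139 and 169.6 (log2 fold change -1.33 ± 0.14), and at -0.61 after the rescaling it was no longer called. Of 5 protocadherins, PCDHAC2 (3.24-fold) and PCDH7 (a ratio of 13.0, interval 4.15 to 67.5) were higher, and PCDHB15, PCDHGB2 and PCDHGA6 were lower. PCDHAC2 was 67.4, 65.8 and 76.4 in Scramble and 205, 249.6 and 224 in shOGT. PCDHGB2 was 13.3, 25.2 and 12.9 against 5.26, 6.43 and 2.28, and PCDHGA6 was 18.6, 16.2 and 13.8 against 6.32, 2.14 and 4.55. PCDHB15 was 53.2, 100.9 and 63.5 against 18.9, 18.2 and 48.9, with one shOGT library close to the Scramble values, and it was not called after the rescaling (-0.71) or by an ordinary linear model. The clustered protocadherins share exons and sequence with their neighbours, so the reads of PCDHAC2, PCDHB15, PCDHGB2 and PCDHGA6 cannot be assigned with certainty.

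CTNNB1 and its inhibitor moved in opposite directions. CTNNB1, beta-catenin, which links cadherins to actin and acts in Wnt signalling (ENSG00000168036, chromosome 3, 41194741 to 41260096), was 4465, 4645 and 4626 in Scramble and 10332, 12196 and 12434 in shOGT (log2 fold change 1.34 ± 0.089, adjusted p = 4.76e-09). CTNNBIP1, which blocks the binding of beta-catenin to TCF factors, was 336, 264 and 255 against 103, 85.7 and 108.1 (log2 fold change -1.51 ± 0.17, adjusted p = 8.22e-07). The rescaled log2 fold change of CTNNBIP1 was -0.80 and no longer passed the fold limit, and an opposite-strand gene covers 12.7% of its exon bases.

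Of 4 connexin genes, which encode the channels of gap junctions, 3 were higher and 1 was lower. GJB5, a connexin known from skin, was low, at 1.77, 0 and 3.68 against 18.9, 6.43 and 7.97, and 6.11-fold higher, with a log2 fold change of 2.23 that was 1.61 without library 2. GJA3, a connexin of the lens, fell from 91.4, 69.4 and 55.2 to 23.2, 22.5 and 33.0 (log2 fold change -1.41 ± 0.29), and at -0.71 after rescaling it was not called.

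The nectins and CEACAMs, adhesion proteins of the immunoglobulin family, were mostly lower. NECTIN1, which starts adherens junctions (ENSG00000110400, chromosome 11, 119623408 to 119729084), was 3799.6, 3426 and 3346 in Scramble and 680.0, 659.8 and 642 in shOGT, and 18.7% remained (log2 fold change -2.41 ± 0.087, adjusted p = 2.28e-11). NECTIN2 fell from 4711, 4145 and 4000.1 to 1977, 1802 and 1822 (log2 fold change -1.20 ± 0.089). Once rescaled, NECTIN2 stood at -0.48 and was not called, while NECTIN1 was called under every setting. CEACAM7, which is expressed by differentiated colon epithelium, was 60.3, 44.2 and 57.1 against 4.21, 8.57 and 4.55, 9.32-fold lower (log2 fold change -3.06 ± 0.37). CEACAM1 was 2.54-fold lower (from 2230.4 ± 102 to 878 ± 61.6, SD, n = 3), and after rescaling it too was not called. CEACAM6, which lies beside CEACAM7 on chromosome 19, was the exception, at 33.7, 38.7 and 37.7 in Scramble and 132, 163 and 171 in shOGT (log2 fold change 2.04 ± 0.21). Summed over the 5 genes, Scramble counts were 9747 to 10719 and shOGT counts 3528 to 3602.

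**Figure D3:**
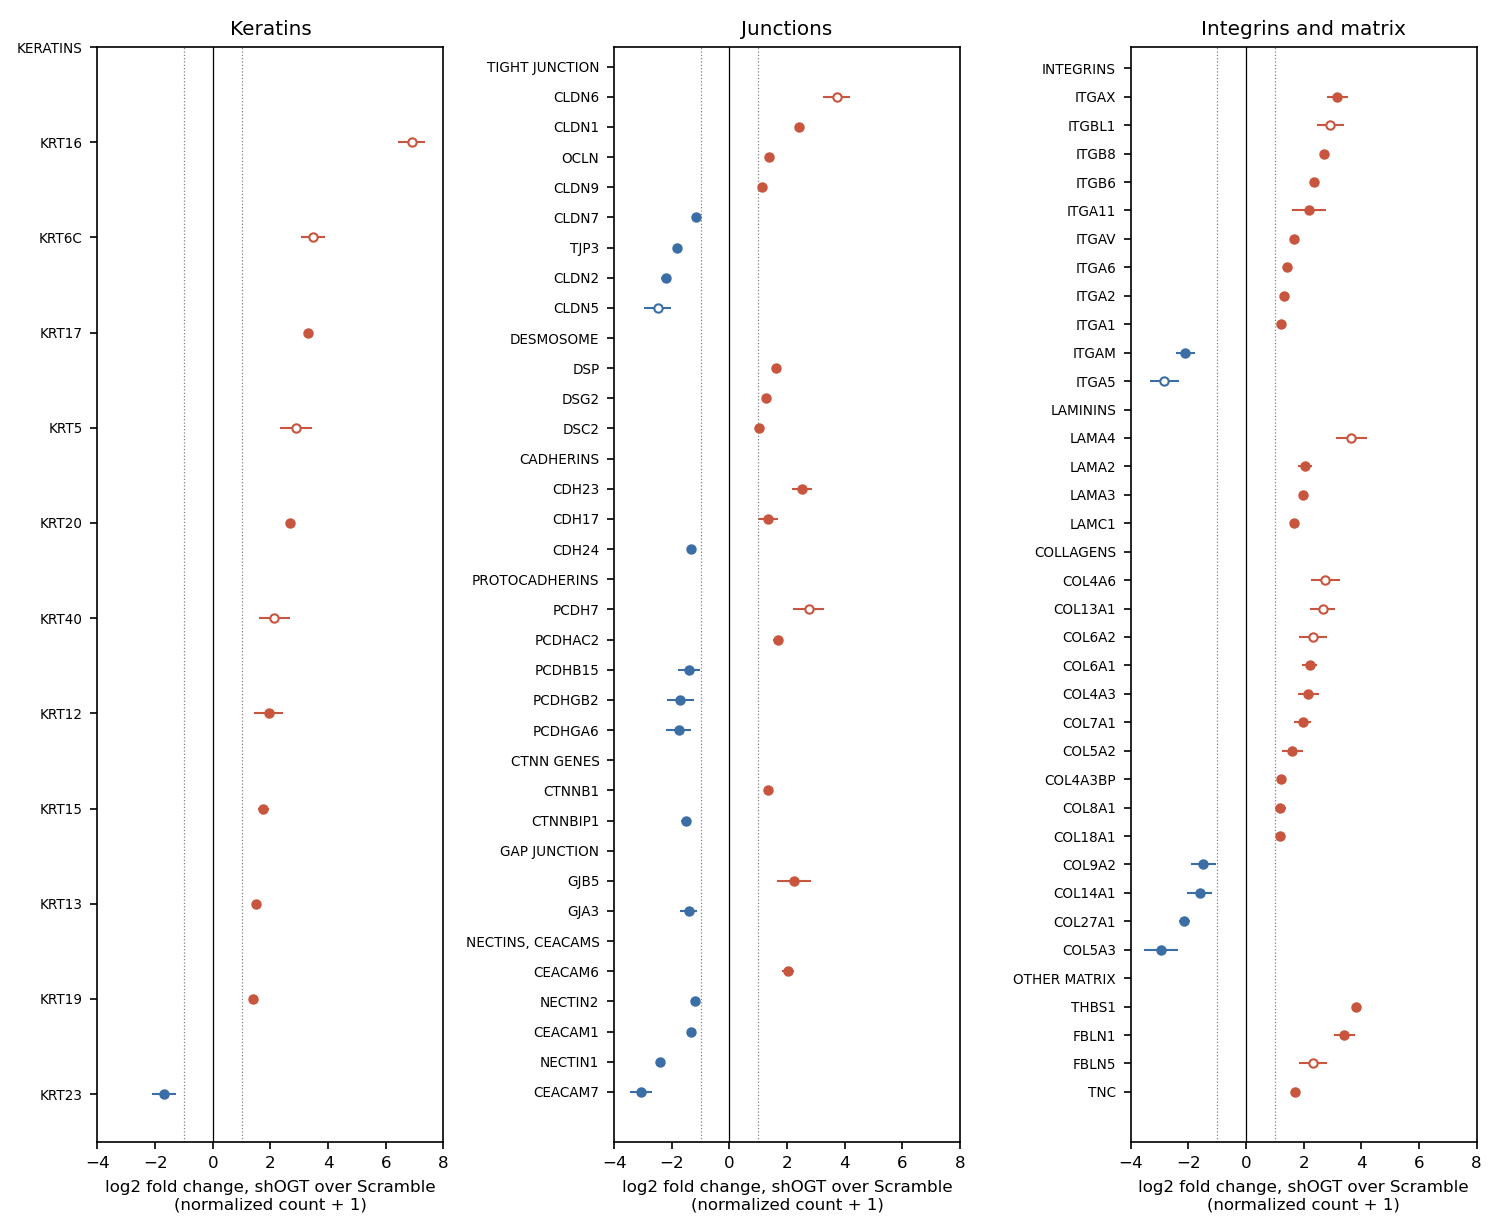
Log2 fold change (shOGT over Scramble, on normalized count + 1) of 72 of the 75 members by role, with bars of 1 standard error from limma, red for higher and blue for lower. Open points mark genes with 3 reads or fewer in every library of one group, where the fitted value depends on the added 1, and dotted lines mark the 2-fold limits.

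The integrin genes were higher in 9 of 11 cases. ITGA6, a laminin receptor subunit that also builds hemidesmosomes (ENSG00000091409, chromosome 2, 172427354 to 172506282), was the most abundant integrin gene per exon length, at 10046, 11369 and 11365 in Scramble and 26199, 30834 and 30706 in shOGT (log2 fold change 1.42 ± 0.095, adjusted p = 5.13e-09). ITGAV, which pairs with several beta subunits, was 3.17-fold higher, from 4354 ± 341 to 13796 ± 1583 (SD, n = 3). Both beta subunits in the table that pair with ITGAV in receptors of latent TGF-beta also rose. ITGB6 went from 642 ± 25.9 to 3283 ± 134 (log2 fold change 2.35 ± 0.085), and a same-strand gene shares 17.9% of the 75-base stretches of its transcript. ITGB8 was 367, 460.5 and 502 in Scramble and 2890.3, 3115 and 2665 in shOGT (log2 fold change 2.71 ± 0.12, adjusted p = 8.97e-11). ITGA1 and ITGA2 are neighbouring genes of collagen receptor subunits. ITGA1 was 1310.0, 1708 and 1706 against 3032, 3820.5 and 4111 (log2 fold change 1.21 ± 0.13), and ITGA2 was 2.52-fold higher.

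Integrin genes best known from leukocytes and from fibronectin binding behaved differently from one another. ITGAX was 18.6, 6.31 and 9.20 in Scramble and 106, 110.3 and 86.5 in shOGT (log2 fold change 3.16 ± 0.36). ITGAM, its neighbour on chromosome 16 and also a partner of ITGB2, was 56.8, 41.5 and 47.9 against 11.6, 8.57 and 11.4 (log2 fold change -2.11 ± 0.33), so that this pair moved in opposite directions. ITGA5, the fibronectin receptor subunit, was 16.9, 15.3 and 11.04 against 2.11, 2.14 and 0, and its Scramble to shOGT ratio was 10.2 with a counting interval from 3.65 to 38.1. ITGA11, a collagen receptor subunit, was 1.77, 0 and 3.68 against 17.9, 8.57 and 5.69, with a log2 fold change of 2.18 that was 1.56 without library 2, and was not called by an ordinary linear model. ITGBL1 was 0 in Scramble and 9.47, 8.57 and 3.41 in shOGT, at least 2.64-fold higher, and FGF14 covers 70.5% of its exon bases on the opposite strand.

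The promoter of ITGA6 is shown because it holds the E-box in a member that rose, and because of its high level. One of its windows (GRCh38.p14, plus strand, chr2:172427086-172427385) holds in capitals the E-box, a TATA box on the reverse strand and a GC box.
ITGA6: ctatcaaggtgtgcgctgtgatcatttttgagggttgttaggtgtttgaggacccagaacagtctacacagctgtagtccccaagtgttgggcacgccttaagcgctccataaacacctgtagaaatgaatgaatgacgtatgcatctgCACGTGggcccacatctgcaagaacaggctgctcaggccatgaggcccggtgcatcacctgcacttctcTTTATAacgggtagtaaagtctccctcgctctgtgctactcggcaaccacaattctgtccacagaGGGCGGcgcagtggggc

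All 5 laminin genes in the table were higher. LAMA3, an alpha chain of the laminin that hemidesmosomes bind (ENSG00000053747, chromosome 18, 23689443 to 23956222), was 989, 1078 and 1043 in Scramble and 3764, 4326 and 4288 in shOGT (log2 fold change 1.99 ± 0.088, adjusted p = 1.22e-10). LAMC1, the gamma chain of most other laminins, was 4948, 4865 and 4975 against 14264, 16230.0 and 16722 (log2 fold change 1.67 ± 0.086). LAMA3 thus rose 3.98-fold and LAMC1 3.19-fold. LAMA2, the alpha chain of muscle basement membrane, was 22.2, 20.7 and 27.6 against 102, 95.3 and 102 (log2 fold change 2.05 ± 0.25). LAMA4 was 2.66, 0 and 0 against 24.2, 17.1 and 14.8, a ratio of 21.1 with an interval from 6.75 to 104, and its log2 fold change of 3.65 was 4.27 without library 1.

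Of the 38 higher members with a promoter window, only LAMA3 had the AP-1 site TGANTCA in it, in 2 copies. The window surrounds a start inside the gene, well after the gene start given above. Both copies are shown in capitals with a GC box (GRCh38.p14, plus strand, chr18:23872770-23873069).
LAMA3: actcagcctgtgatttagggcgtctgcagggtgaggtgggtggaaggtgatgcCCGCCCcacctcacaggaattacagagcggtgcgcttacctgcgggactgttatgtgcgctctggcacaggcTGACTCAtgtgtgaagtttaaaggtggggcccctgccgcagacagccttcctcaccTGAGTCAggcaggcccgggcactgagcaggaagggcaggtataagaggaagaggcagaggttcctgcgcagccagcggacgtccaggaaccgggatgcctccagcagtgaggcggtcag

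Collagen genes were higher in 10 of 14 cases, mostly at low levels, with a median of 25.02 normalized counts. COL6A1, a chain of the microfibrillar collagen VI (ENSG00000142156, chromosome 21, 45981737 to 46005050), was 23.9, 17.1 and 28.5 in Scramble and 124, 100.7 and 102 in shOGT (log2 fold change 2.21 ± 0.27). COL6A2, its partner on chromosome 21, was 0 in Scramble and 6.32, 2.14 and 4.55 in shOGT, at least 1.60-fold higher. COL4A3, a basement membrane chain, was 6.21, 5.41 and 4.601 against 28.4, 23.6 and 30.7 (log2 fold change 2.16 ± 0.37). COL7A1, which forms anchoring fibrils under stratified epithelia, was 4.14-fold higher, from 12.9 ± 0.552 to 53.6 ± 5.98 (SD, n = 3). COL18A1, the precursor of endostatin, was the most abundant true collagen per exon length and rose 2.27-fold, from 530.2 ± 91.6 to 1201 ± 179.5, with SLC19A1 over 16.4% of its exon bases on the opposite strand. COL8A1 and COL5A2 were 2.30-fold and 3.18-fold higher. COL4A6 and COL13A1 rose from 3 reads or fewer, by ratios of 16.7 (interval 4.25 to 146) and 9.02 (interval 3.84 to 25.9). The highest mean belonged to COL4A3BP, which is no collagen, at 616, 659 and 648 against 1305, 1584 and 1594 (log2 fold change 1.21 ± 0.10).

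The 4 lower collagen genes included 2 fibrillar ones with large changes. COL27A1 (ENSG00000196739, chromosome 9, 114155560 to 114312511) was 349, 294 and 301 in Scramble and 75.8, 83.5 and 54.6 in shOGT, and 22.7% remained (log2 fold change -2.14 ± 0.18, adjusted p = 5.81e-08). COL5A3 was 16.0, 32.4 and 16.6 against 4.21, 3.21 and 0 (log2 fold change -2.94 ± 0.59, and -2.20 without library 6). COL5A2, of the same collagen type, was 14.2, 8.11 and 13.8 against 32.6, 50.3 and 31.9, so that chains of collagen V did not move as one. COL9A2 and COL14A1 were 3.08-fold and 3.48-fold lower, and neither was called after the rescaling.

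All 4 other matrix genes were higher. THBS1, thrombospondin 1, a secreted protein that binds cells and latent TGF-beta (ENSG00000137801, chromosome 15, 39581079 to 39599466), was 368, 386 and 376 in Scramble and 5269, 5399 and 5169 in shOGT. This 14.0-fold rise (log2 fold change 3.81 ± 0.082, adjusted p = 8.43e-13) had the smallest p among the members. FBLN1, fibulin 1 of basement membranes, was 4.43, 5.41 and 10.1 against 90.5, 69.6 and 70.6 (log2 fold change 3.41 ± 0.36). TNC, tenascin C, known from wounds and tumour stroma, was 987, 1123 and 1183 against 3479, 3529 and 3757 (log2 fold change 1.71 ± 0.091). FBLN5 was 0 in Scramble and 2.11, 6.43 and 4.55 in shOGT, at least 1.61-fold higher.

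The THBS1 window is shown because its change had the smallest p of the members. It runs on the plus strand (GRCh38.p14, chr15:39580829-39581128) and holds in capitals the TEAD site GGAATG and 4 GC boxes.
THBS1: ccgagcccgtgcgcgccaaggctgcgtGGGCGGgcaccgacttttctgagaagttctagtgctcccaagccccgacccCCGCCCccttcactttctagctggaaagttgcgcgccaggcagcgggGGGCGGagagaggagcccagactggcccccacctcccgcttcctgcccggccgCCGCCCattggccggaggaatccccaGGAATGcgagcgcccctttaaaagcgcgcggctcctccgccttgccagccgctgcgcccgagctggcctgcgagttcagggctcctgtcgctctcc

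Promoter windows of RefSeq were matched to 54 of the 75 members, 38 higher and 16 lower, which gave 51 and 19 windows. Both strands were searched for 5 motifs, none of which contains another. The E-box CACGTG was present in 9.80% of the windows of higher members (CEACAM6, ITGA6 and KRT40), in 5.26% of those of lower members (TJP3) and in 7.26% of all 35116 windows of the same length. Of the 5 windows of higher members with an E-box, 3 are overlapping windows of KRT40 that hold 1 and the same site. By gene, it was in 7.89% of 38 higher members, 6.25% of 16 lower members and 8.77% of all 27305 genes with windows. The TATA box TATAAA was in 15.7%, 0% and 11.5%, the TEAD site GGAATG in 5.88%, 21.1% and 14.0%, and the AP-1 site TGANTCA in 1.96%, 10.5% and 7.71% in the same order. The GC box GGGCGG was in 58.8%, 63.2% and 45.0%. A match shows only that the letters occur in the window. With 19 windows of lower members, 1 window changes a share by more than the E-box shares differ.

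Per exon length, KRT19, ITGA6 and KRT20 were the most abundant members in shOGT. KRT19 had a mean of 2029 normalized counts per kb of exons in Scramble and 5303 in shOGT, and ITGA6 had 1672 and 4477. CLDN7 and NECTIN2 followed in Scramble, at 1306 and 1144, and stood at 597 and 498 in shOGT. In shOGT the genes after KRT19 and ITGA6 were KRT20 at 3056, LAMC1 at 1872 and ITGAV at 1680.2. CLDN7 thus stood above KRT20 (at 475) in Scramble and below it in shOGT.

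**Figure D4:**
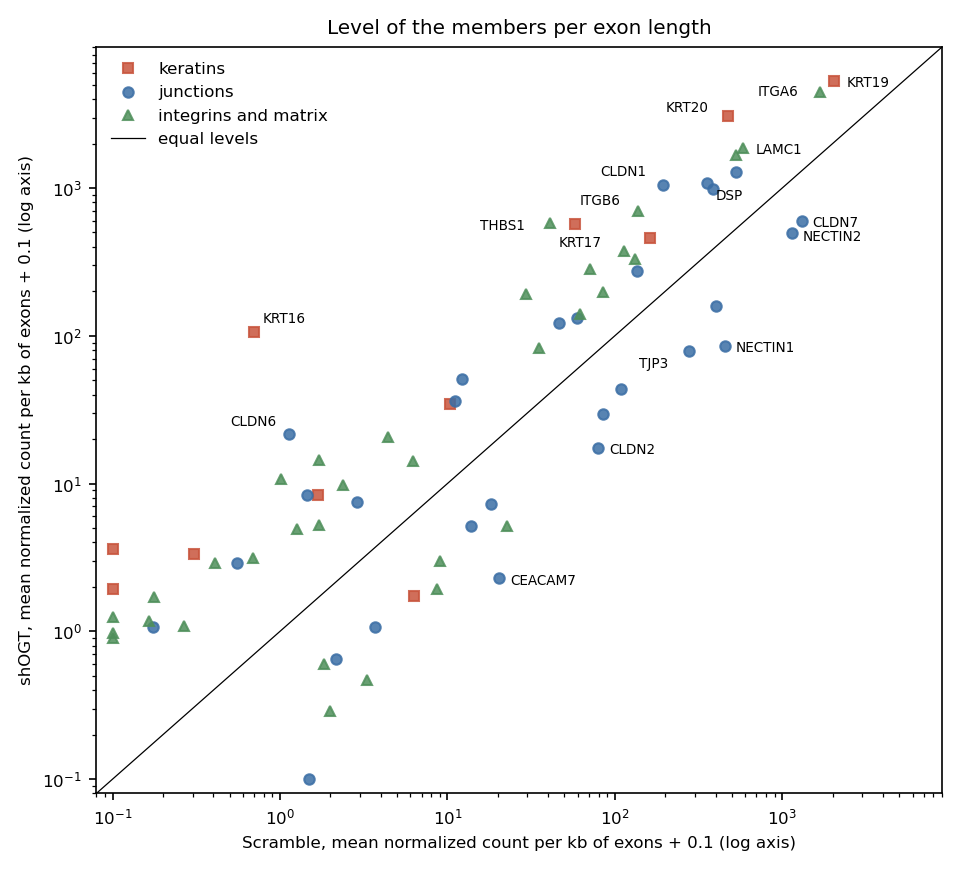
Mean level of 72 members per kb of exons in Scramble (horizontal) and shOGT (vertical), both as normalized count per kb + 0.1 on log axes, with the line of equal levels. KRT19 and ITGA6 are at the top right, and NECTIN1, TJP3 and CLDN2 lie well below the line.

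Transcript composition moved with direction in this table. Among protein coding genes, 61.1% of the tertile with the lowest GC content, 39.7% of the middle tertile and 26.1% of the tertile with the highest GC content were higher in shOGT. Among the members the shares were 93.8% (15 of 16), 66.7% (20 of 30) and 65.5% (19 of 29). By exon length, from short to long, 41.9%, 36.2% and 48.8% of protein coding genes and 70%, 47.1% and 84.2% of members were higher. The higher members had a median GC content of 49.4% and a median exon length of 6652 bases, and the lower members 54.98% and 4217 bases. The keratins, with a median GC content of 56.3%, were mostly higher although GC-rich genes of the table were mostly lower. The part of GC content and length in the result was not tested.

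**Figure D5:**
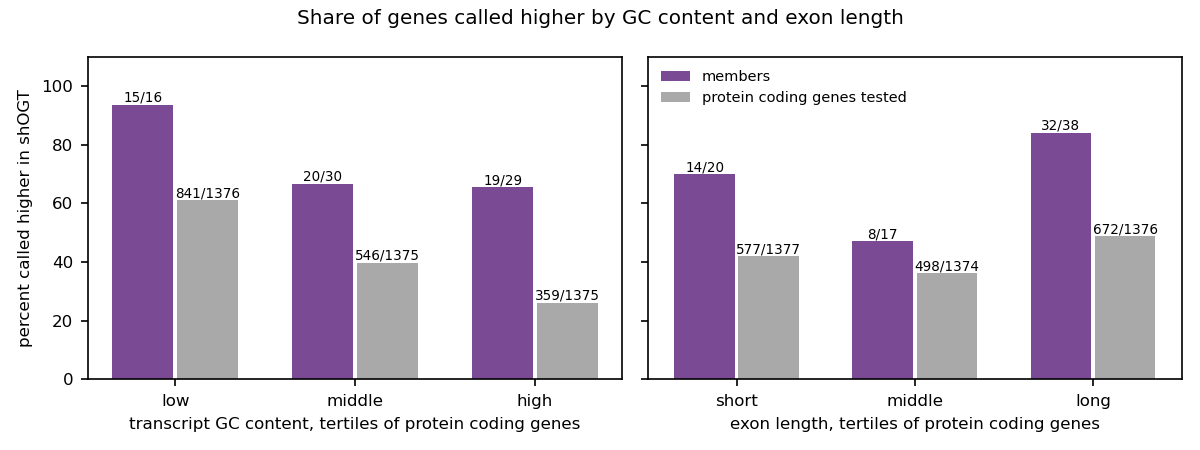
Percent of genes called higher in shOGT in tertiles of transcript GC content (left) and exon length (right), for members and for all protein coding genes tested, with the number higher over the number of genes on each bar. The members exceed the protein coding genes in each class, and both fall from low to high GC content.

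Most pairs of neighbouring members shared a direction. Of 29 pairs of members within 200 kb of each other, 24 (82.8%) moved the same way, against 69.4% of 4683 such pairs among all protein coding genes tested. Most of the member pairs lie in the keratin clusters and share genes with one another, so that they are not independent. Members were higher in 72% of cases and keratins in 90.9%, so pairs of them often share a direction whatever their distance. The shares of pairs therefore cannot show an effect of position. The 5 pairs that moved apart were ITGAM with ITGAX, CEACAM7 with CEACAM6, and KRT23 with KRT12, KRT20 and KRT40.

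Other components of the same structures followed both patterns. Of 34 further junction genes on a list, 10 were in the table, 8 higher and 2 lower. PERP, a desmosomal membrane protein, was 3112, 3263 and 3280.5 in Scramble and 10415, 10849 and 11738 in shOGT (log2 fold change 1.77 ± 0.082), and CGNL1 and PARD6B were 3.19-fold and 2.87-fold higher. Of 25 genes of adhesion plaques and hemidesmosomes, 9 were listed, 4 higher and 5 lower. DST, which ties keratin to the hemidesmosome, was 3.39-fold higher, while the focal adhesion genes LIMS2 and TNS2 fell to 19.6% and 26.9% of Scramble. Of 36 other matrix genes, 14 were listed, 9 higher and 5 lower. Their summed level was lower in shOGT, at 5083 to 5659 normalized counts in Scramble and 3776 to 4367 in shOGT. GPC1, the most abundant of them in Scramble, fell to 33.6% and was not called after the rescaling (-0.86). CYR61 was 172, 141 and 139 against 1934, 1736 and 1596, CTGF 7.98, 12.6 and 8.28 against 123, 126 and 83.1, and both are secreted matrix-binding proteins whose log2 fold changes were 3.54 and 3.40. FBN2, a microfibril gene, rose 12.5-fold from a mean of 3.34. Of 21 genes for the synthesis and cross-linking of collagen, 5 were listed, 3 higher and 1 lower with PCOLCE short of the fold limit, among them LOX (2.29-fold higher), PCOLCE2 (2.36-fold higher) and P3H3 (36.1% remaining, and not called after the rescaling). Of 18 other genes on a list for intermediate filaments, 6 were in the table, 2 higher and 4 lower. The lower ones include KRTCAP3 and FAM83H, which do not encode filament proteins. SYNM and NEFH were higher from means under 1 normalized count, and PRPH was lower at 8.87, 8.11 and 9.20 against 0, 2.14 and 1.14. Over these lists and those of markers below, 37 non-member genes were higher and 23 lower, and with the rescaled libraries 37 and 10. Beside these counts, 52.2% of all genes tested and 42.3% of protein coding genes were higher. After the rescaling, 73.2% of called genes and 65.4% of called protein coding genes were higher.

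Marker genes of other epithelia and cell types were read beside the keratins. Of 19 markers of squamous epithelium, 9 were in the table and all 9 were higher, 5 of them keratins described above. Their summed level was 1410 to 1498 normalized counts in Scramble and 6701 to 7302 in shOGT. SERPINB5, KRT17 and KRT13 made up most of this sum in both groups. TMPRSS11E was 0, 0 and 2.76 in Scramble and 112, 111 and 154 in shOGT, IVL, involucrin of the cornified envelope, was 0, 0 and 1.84 against 51.6, 26.8 and 29.6, and SERPINB5 was 4.37-fold higher. TP63 and KRT14, which define basal squamous cells, were not analysed here. Of 18 cornified envelope genes, IVL, SPRR3 and CDSN were listed and higher, with sums of at most 7.36 in Scramble and 42.8 to 77.9 in shOGT. Of 16 colon epithelial markers, KRT19, KRT20 and CDH17 were higher, while VIL1 (villin), LGALS4 and HNF4A fell to 45.9%, 25.5% and 26.8% of Scramble. After the rescaling VIL1, at -0.40, was no longer called. The colon markers therefore split in direction, and bulk RNA cannot tell a change in the number of cells of a kind from a change in RNA per cell.

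Markers of non-epithelial cells, like those of epithelia, were only partly in the table. Of 13 fibroblast and mesenchymal markers only PDGFRB was listed, at 0, 1.80 and 0 against 10.5, 17.1 and 13.7. Of 8 endothelial markers 4 were listed, 1 higher (PECAM1, from 47.5 ± 4.67 to 168 ± 36.3) and 3 lower (TEK, CLDN5 and ESAM), and summed they were 1134 to 1437 in Scramble and 690 to 741 in shOGT, most of it ESAM, which was not called after the rescaling (-0.39). Of 10 immune markers, 3 were higher (LYZ, CD14 and ITGAX) and 1 lower (ITGAM). LYZ, at 8166 ± 392 in Scramble and 16442 ± 884 in shOGT, made up nearly all of the summed level, and intestinal epithelium also expresses it. PTPRC, the defining immune marker, was not analysed here. Of 18 regulators of the epithelial and mesenchymal states, ZEB1 was 19.5, 28.8 and 13.8 against 255, 277 and 239 and KLF4 was 2.64-fold higher, whereas SNAI1 and the epithelial splicing factor ESRP1 fell to 30.3% and 33.7% of Scramble. Rescaled, ESRP1 stood at -0.85 and was not called. The part of these genes in the changes of the members was not tested.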

How the data were processed

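RNA-seq of 3 Scramble and 3 shOGT libraries of HT-29 cells was analysed, columns being matched to samples by the number in the label. The authors deposited normalized counts per gene and library, a signal made by dividing read counts by 1 size factor per library (1.09 to 1.13 in Scramble, 0.879 to 0.950 in shOGT), without division by gene length. Whole reads were recovered for 100% of values (tolerance 0.02 reads), for the genes of the table only, so that the depth of the libraries is unknown. The table was restricted to genes whose group means differ at least 2.00-fold, and the authors' own group means, fold changes and p-values in it were not used. The submitters' processing notes name cutadapt 1.9, HISAT2 2.0.4, UMI-tools, StringTie 1.3.4d, DESeq2 and edgeR, without roles, and the mouse build mm8, whereas all 5681 genes matched GENCODE 29 on GRCh38. The labels describe oligo(dT) capture, dUTP and molecular identifiers, and the paper's methods a strand-specific Agilent SureSelect kit. Whether counting used strand is not given in the sources used here.

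limma 3.58.1 (trend, R 4.3.3) compared the groups on log2(normalized count + 1), with no other term. On this scale the folds of low genes come out too small. Genes needed values of 1 or more in 3 or more libraries, which 5671 genes met, 4127 of them protein coding, and all 75 members. Calls required a fold over 2 and a Benjamini-Hochberg adjusted p under 0.05 over all genes tested. Other folds are ratios of group means. A group at 0 was set to 3 reads per library for a lower bound, and a group with no library over 3 reads has an exact 95% Clopper-Pearson interval on its ratio. Both cover counting error only. The fit was tested on simulated counts in which most genes were unchanged. Nearly all genes of the table were called, so that test does not check the calls made here. Genes were treated as uncertain if at least 10% of the 75-base stretches of their transcript occur in other genes, or at least 10% of their exon bases are overlapped. Promoter windows came from RefSeq (GRCh38.p14).

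Per-library values were given, in each of 12 roles, for the 2 highest and the 2 lowest fold changes among called members with a mean of at least 10, for the member with the highest mean and for a list of well-known genes, with up to 3 genes for each further list. Some members that this rule or the role names pick out are not reported here one by one and stay in the counts, sums and medians. Other genes were named for their role or as exceptions after their values were seen. The members and the gene lists were chosen with earlier results of these data known. The alternatives were median-of-ratios rescaling, a pseudocount of 0.1, no filter, a mean of at least 5, an ordinary linear model, edgeR 4.0.16 (quasi-likelihood) and DESeq2 1.42.0 on the recovered reads, omission of uncertain genes, and each library left out. Omitting the 3 genes of other function, or members with a mean under 10, was added after seeing the data.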

Additional observations from a re-analysis of the deposited data

How the results depend on the processing

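All 75 members kept their direction under every setting, and edgeR and DESeq2 on the recovered reads called the same 54 higher and 21 lower. Rescaling by median-of-ratios factors left 12 members lower in place of 21, 7 junction genes in place of 14, and 10 in place of 23 of the other listed genes, because it raises every shOGT value relative to Scramble. CLDN7, CDH24, PCDHB15, CTNNBIP1, GJA3, NECTIN2, CEACAM1, COL9A2 and COL14A1 lost their call this way. Without genes that share sequence or exon bases, 8 junction genes were lower. An ordinary linear model lost PCDHB15 and ITGA11. Among members with a mean of at least 10, 42 were higher and 18 lower, with 7 keratins higher and 1 lower. Their median log2 fold change was 1.41 against 1.66 over all members. Without the 3 genes of other function, 52 members were higher and 20 lower. Leaving out each library in turn gave 53 or 54 higher and 21 lower members, DSC2 being lost without library 1, 5 or 6. The median log2 fold change of the keratins was 2.69 with a pseudocount of 0.1, with edgeR, with DESeq2 and without library 4, against 2.14. No paired analysis was possible because the labels number the libraries 1 to 3 and 4 to 6, so that the groups share no replicate number. At 3 reads or fewer in a group, depth limits a fold to a bound or a wide interval, and the fitted value depends on the pseudocount.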
